A study of Mus musculus with 12 samples.

Results

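The proteins encoded by 5 genes that read the H3K9me3 mark of heterochromatin, or act with a reader of it, were followed at the transcript level: Cbx1, Cbx3, Cbx5, Mphosph8 and Pphln1. They were chosen by name, as the rows of the deposited table whose Ensembl identifier pairs with these symbols. All 5 of 5 were found among the 55487 genes of the table. RNA was sequenced from male germ cells (gonocytes) isolated from the testes of Mvh-Venus mice, in which a fluorescent reporter marks the germ line, with 3 libraries at each of 4 stages. The stages were E13.5 and E16.5 in the embryo, and P0 (newborn) and P3 after birth. By title and source name every one of the 12 samples is wild type, but a genotype tag reads Morc1 (+/-) at E13.5 and P0 and Morc1 (-/-) at E16.5 and P3. Genotype and stage cannot be told apart in the 4 comparisons that cross the tag, whereas P0 against E13.5 and P3 against E16.5 each stay within 1 tag. Nothing in the sources used here says whether libraries came from separate animals or litters, so p-values measure only the spread between these libraries.

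Trimethylation of histone H3 at lysine 9 marks silent chromatin, including transposons and satellite repeats. The heterochromatin proteins HP1 beta (Cbx1), HP1 gamma (Cbx3) and HP1 alpha (Cbx5) bind this mark through a chromodomain and dimerise through a chromoshadow domain, which also recruits partner proteins. Mphosph8 encodes MPP8, the chromodomain subunit of the HUSH (human silencing hub) complex, and Pphln1 encodes periphilin, the subunit that binds RNA. HUSH also contains TASOR and works with the H3K9 methyltransferase SETDB1 and the ATPase MORC2 to silence transposons and other intronless transcripts. In the fetal testis, gonocytes stop dividing, re-establish DNA methylation and silence transposons before they resume division after birth.

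The libraries held 40946616 to 51533747 recovered reads, and values are normalized counts, that is, reads divided by 1 size factor per library. Summed normalized counts of 4 germ cell markers (Ddx4, Dazl, Tdrd1 and Mael) were 129864 to 234250 in every library, and all 4 were detected at each stage. The 5 Sertoli cell markers were all detected too, with sums of 3164 to 4345, 10640 to 15066, 12912 to 25554 and 5012 to 6471 for E13.5, E16.5, P0 and P3, the order in which stages are given throughout. The 4 blood markers summed to 41.0 to 184, 1614 to 1992, 1373 to 1920 and 246 to 432, and the 4 peritubular markers to 159 to 209, 929 to 1331, 2835 to 3156 and 684 to 741. The 5 Leydig cell markers reached 7681 in 1 library of E16.5 and 6106 in 1 of P0, with Insl3 at 0 in all of P3. All 4 mast cell markers were at 0 at E13.5 and summed to 1350 to 2855 at P0. Among the 6 markers of macrophages and endothelium, Pecam1 had 4618 normalized counts at E13.5 against 282 at E16.5, whereas Cd68, Adgre1, Csf1r and Cdh5 were lower at E13.5 than at E16.5 (Cd68 46.7 and 938). The part of such other cells in the results below was not tested. In these bulk samples, fewer cells with a transcript and less transcript per cell cannot be told apart. Morc1 itself had 1697 ± 115, 31378 ± 2641, 7496 ± 214 and 10880 ± 276 normalized counts (SD, n = 3), so the stages tagged as homozygous mutant were not low in Morc1 reads; whether the counted reads cover the mutated part of the gene is not given in the sources used here.

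The genes lie on 4 chromosomes of GRCm38, the build that the submitters' processing notes name. In the GENCODE annotation, Cbx1 (ENSMUSG00000018666) spans 96789127 to 96808640 of chromosome 11, Cbx3 (ENSMUSG00000029836) 51470360 to 51483704 of chromosome 6, and Mphosph8 (ENSMUSG00000079184) 56668248 to 56697430 of chromosome 14, all on the + strand. Chromosome 15 holds both Cbx5 (ENSMUSG00000009575, 103191544 to 103239816, - strand) and Pphln1 (ENSMUSG00000036167, 93398350 to 93491510, + strand). All 5 are protein-coding. Stretches before start sites listed by RefSeq are printed because the results below also concern genes that start next to Cbx5 and Pphln1. They come from the RefSeq promoter table (GRCm38.p6), which matched 5 of 5 members, run 5′ to 3′ on the gene's strand, and are cut to bases in no annotated exon. That of Cbx3 precedes a RefSeq start but lies inside the gene span above, after the GENCODE start and between exons, and not between Cbx3 and its neighbour. Capitals mark the motifs searched on both strands, the CCAAT box (CCAAT, or ATTGG where it lies on the other strand) and E2F-type sites (TTTCCCGC or TTTGGCGC).
Cbx1, chr11:96788885-96789126, + strand: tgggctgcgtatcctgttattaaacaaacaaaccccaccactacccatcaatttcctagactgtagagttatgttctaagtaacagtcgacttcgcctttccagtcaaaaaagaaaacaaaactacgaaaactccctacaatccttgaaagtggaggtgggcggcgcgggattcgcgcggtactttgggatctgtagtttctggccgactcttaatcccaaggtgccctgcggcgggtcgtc
Cbx3, chr6:51470432-51470529, + strand: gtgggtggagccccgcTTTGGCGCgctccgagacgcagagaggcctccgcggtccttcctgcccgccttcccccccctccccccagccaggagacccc
Cbx5, chr15:103239853-103240102, - strand: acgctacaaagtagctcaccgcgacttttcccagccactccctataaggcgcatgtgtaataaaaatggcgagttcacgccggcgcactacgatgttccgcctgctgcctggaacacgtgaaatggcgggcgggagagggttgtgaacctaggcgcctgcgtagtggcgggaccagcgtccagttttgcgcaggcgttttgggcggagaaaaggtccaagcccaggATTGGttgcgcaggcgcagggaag
Mphosph8, chr14:56668125-56668247, + strand: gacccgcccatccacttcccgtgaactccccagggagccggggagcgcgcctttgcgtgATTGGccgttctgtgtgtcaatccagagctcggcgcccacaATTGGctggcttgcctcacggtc
Pphln1, chr15:93398335-93398349, + strand: gtcaccgcgcgcgcc
A CCAAT box stood 24 bases before the RefSeq start of Cbx5 whose stretch is printed, and Mphosph8 held 2, at 64 and 23 bases. The members had 8 windows in all, and the other window of Cbx5 held no CCAAT box. Of 32851 RefSeq windows of 300 bases around a start, 37.4% held a CCAAT box, so this is common. An E2F-type site lay 168 bases before one RefSeq start of Cbx3, inside the gene span of GENCODE, and 1.56% of windows held one. These letters were not in the windows of Cbx1 or Pphln1. The matches describe the sequence and are not evidence of binding.

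All 5 genes had their highest mean at E13.5 or P3, and 4 of the 5 were lowest at P0. Each differed among the 4 stages (limma F-test, adjusted p between 3.02e-15 and 1.17e-10), but so did 95.2% of the 22384 genes tested. The members are therefore described by how far and in what order they changed. At E16.5 against E13.5 all 5 were lower, where 34.6% of all genes were lower and 45.5% higher, with a median log2 fold change of -1.48 beside 0.31 over all genes. At P3 against P0 all 5 were higher, where 40.1% of all genes were higher and 36.4% lower, with a median of 1.85 beside 0.05. A higher floor on abundance, not matched to the level of the members, gave another background. Of the 13135 genes with a mean of at least 100 normalized counts, 50.2% were lower and 37.0% higher in the former comparison (median -0.27). In the latter, 59.7% were higher and 25.9% lower (median 0.58). The members thus moved with the larger share of such genes. The direction of Mphosph8 in both of these comparisons turned with equal library totals, as given below. Libraries of the stages compared did not overlap for any member in any of the 6 comparisons of stages, but neither did those of most genes: 80.2% at E16.5 against E13.5, 69.5% at P0 against E16.5, 81% at P3 against P0, 88.1% at P0 against E13.5, 71.6% at P3 against E16.5 and 71.3% at P3 against E13.5. All 30 member changes kept their direction and stayed past the threshold in each of the 12 fits that left out 1 library.

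**Figure D1:**
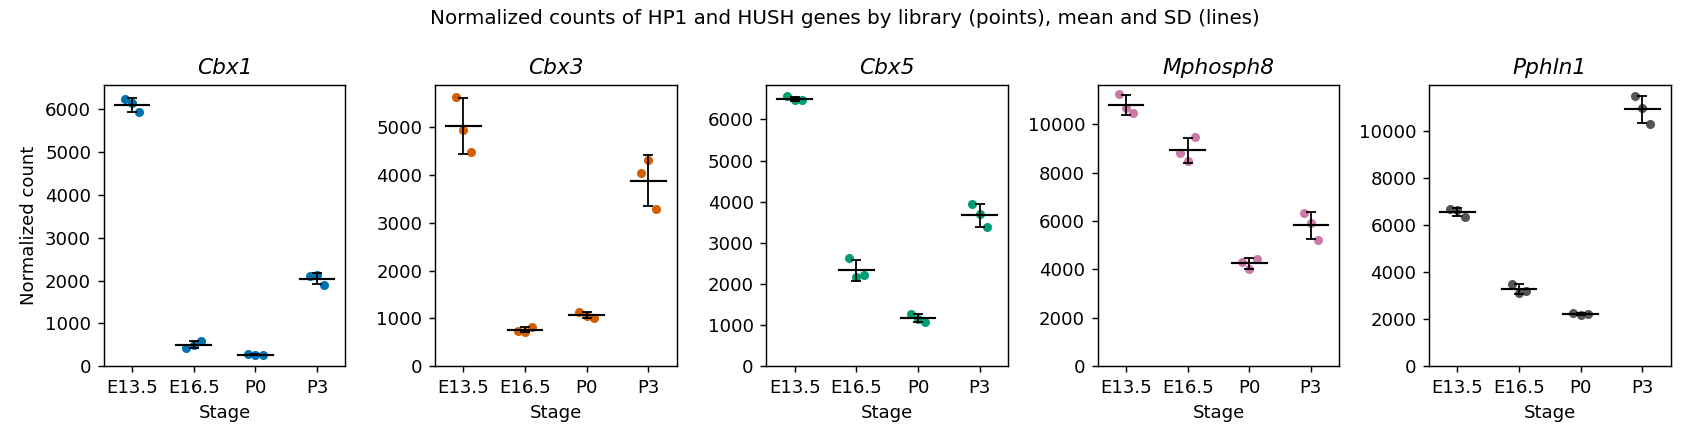
Normalized counts (vertical axes, linear from 0) of the 5 genes at the 4 stages (horizontal axes); points are libraries and lines the mean and SD of 3. The HP1 genes and Pphln1 dip at E16.5 and P0, and Pphln1 is the only one of the 5 with its highest mean at P3 under the scaling of the file.

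Cbx1, which encodes HP1 beta, had the widest range. The E13.5 libraries had 6238, 6145 and 5927 normalized counts, those of E16.5 had 419, 492 and 592, those of P0 287, 263 and 269, and those of P3 2115, 2126 and 1897. The E13.5 libraries stood far above all others, and the P3 libraries lay between them and the 6 libraries of E16.5 and P0. Cbx1 fell 12.2-fold from E13.5 to E16.5, from 6103 ± 160 to 501 ± 86.9 (SD, n = 3; log2 fold change -3.62, SE 0.107, limma adjusted p 2.18e-14). Only 0.791% of all genes had a lower log2 fold change there. From E16.5 to P0 it fell by 0.86 on the log2 scale (adjusted p 2.94e-06), a change that was -0.20 (adjusted p 0.140) with equal library totals. It rose 7.50-fold from P0 to P3 (log2 fold change 2.90, limma adjusted p 5.39e-13), more than 98.7% of genes, yet reached only 33.5% of its E13.5 level. At P0, 484 to 558 reads per library lay behind its value, so counting error did not limit it.

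Cbx3, which encodes HP1 gamma, was lowest at E16.5 rather than P0. It had 5631, 4944 and 4475 normalized counts at E13.5, 744, 722 and 827 at E16.5, and 1131, 1056 and 1017 at P0. The P3 libraries had 4029, 4310 and 3290. The E16.5 libraries were thus all below the P0 libraries, and both stages were well below E13.5 and P3. It fell 6.56-fold from E13.5 to E16.5 (log2 fold change -2.71, SE 0.106, limma adjusted p 5.32e-13). It was the only member that rose at P0 against E16.5, by 0.48 on the log2 scale (adjusted p 0.000842), where 27.6% of genes were higher and the other 4 members were among the 33.4% that were lower. It rose 3.63-fold from P0 to P3 (log2 fold change 1.85, adjusted p 9.26e-11). At P3 it stood at 77.3% of its E13.5 level (log2 fold change -0.37, limma adjusted p 0.00460), the smallest of the HP1 differences between these stages. With equal library totals that difference was -0.046 (adjusted p 0.721).

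Cbx5, which encodes HP1 alpha, went down in 2 steps. In single libraries it had 6562, 6466 and 6466 normalized counts at E13.5, 2624, 2157 and 2219 at E16.5, and 1278, 1142 and 1079 at P0. At P3 it had 3932, 3691 and 3379. The 4 stages were separate from each other and followed the order E13.5, P3, E16.5, P0. It fell 2.78-fold from E13.5 to E16.5 (log2 fold change -1.48, SE 0.0887, limma adjusted p 1.16e-10) and a further 2.00-fold to P0 (log2 fold change -0.998, adjusted p 5.14e-08). It rose 3.14-fold from P0 to P3 (log2 fold change 1.65, adjusted p 4.33e-11), to 56.4% of the E13.5 level.

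Mphosph8, the H3K9me3 reader of HUSH, had the narrowest range of stage means among the 5, 1.34 on the log2 scale. Its normalized counts were 11262, 10667 and 10456 at E13.5, 8793, 8487 and 9491 at E16.5, and 4299, 4016 and 4445 at P0. At P3 they were 6320, 5936 and 5218. The E16.5 libraries were only slightly below those of E13.5, and P0 was lowest. The fall to E16.5 left 82.7% of the E13.5 level (log2 fold change -0.28, SE 0.0773, limma adjusted p 0.00376), the fall to P0 was 2.098-fold (log2 fold change -1.07, adjusted p 4.03e-09) and the rise to P3 1.37-fold (log2 fold change 0.45, adjusted p 5.61e-05). It was the only member whose P3 libraries were below those of E16.5 (log2 fold change -0.62, adjusted p 2.08e-06), among 35.2% of genes that were. Its fall to E16.5 and its rise to P3 depended on scaling: E16.5 against E13.5 was 0.23 with equal library totals (adjusted p 0.0126), and P3 against P0 was -0.39 (adjusted p 0.000255). Per kb of exon it was nonetheless high within every library, at the 94.6th percentile of genes tested at E13.5, 95.6th at E16.5, 94.2nd at P0 and 91.6th at P3 (mean of 3). A rank within a library does not depend on scaling; that of Cbx1 went from 88.9 at E13.5 to 61.8, 51.7 and 78.7.

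Pphln1, which encodes periphilin, was highest at P3. The libraries held 6660, 6637 and 6333 normalized counts of it at E13.5, 3511, 3121 and 3189 at E16.5, and 2271, 2183 and 2214 at P0. At P3 they held 11455, 10949 and 10304. Every P3 library exceeded every E13.5 library, which none of the other members showed. It fell 2.00-fold from E13.5 to E16.5 (log2 fold change -1.0005, SE 0.0678, limma adjusted p 5.89e-10) and by 0.56 on the log2 scale to P0 (adjusted p 2.26e-06), the latter being 0.11 (adjusted p 0.118) with equal library totals. The rise from P0 to P3 was 4.90-fold (log2 fold change 2.29, adjusted p 6.63e-14). At P3 against E13.5 it was the only member higher, 1.67-fold (log2 fold change 0.74, adjusted p 4.85e-08), where 39.2% of genes were higher and 31.2% lower.

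**Figure D2:**
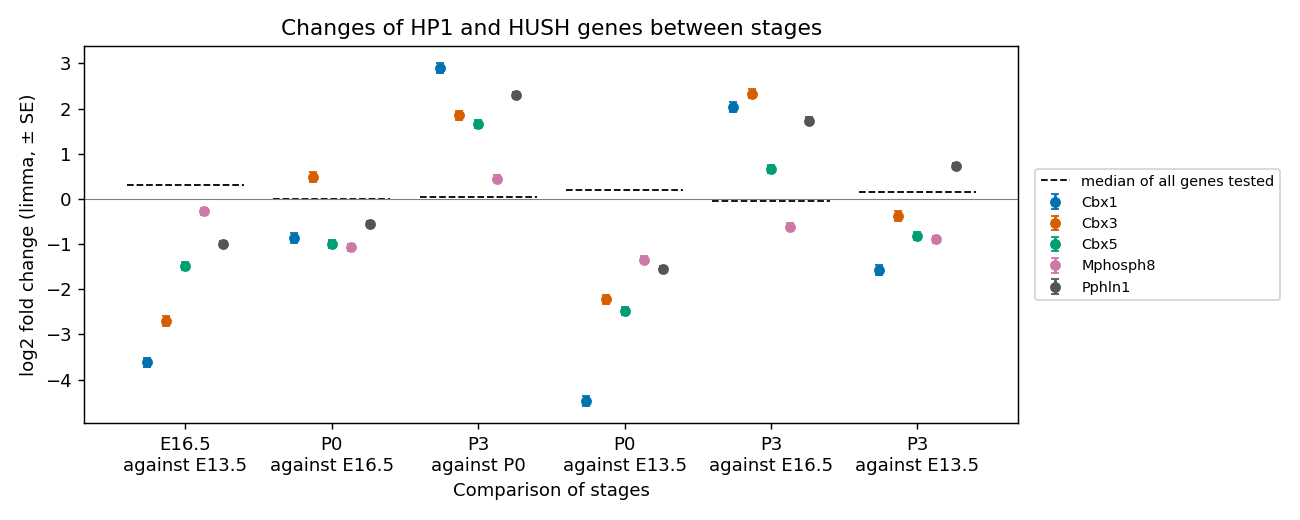
Log2 fold changes with SE (vertical axis) of the 5 genes in the 6 comparisons of stages (horizontal axis); dashed lines give the median of the 22384 genes tested. All 5 genes lie below the median at E16.5 against E13.5 and above it at P3 against P0, and Cbx1 is the farthest from it in both.

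Changes were also taken relative to the median of all genes, since the scaling of libraries moves that median. With the factors of the file the median log2 fold change was 0.31, -0.01 and 0.05 over the 3 steps from each stage to the next, and with equal library totals it was 0.84, 0.68 and -0.86. Over 4 scalings, the relative change of Cbx1 was -3.95 to -3.93, -0.88 to -0.85 and 2.85 to 2.92 in the same steps. That of Cbx3 was -3.04 to -3.02, 0.46 to 0.49 and 1.80 to 1.87, so its rise at P0 stood out from the other members under each scaling. Mphosph8 lay -0.61 to -0.58, -1.09 to -1.06 and 0.40 to 0.47 from the median. Its place against the median of genes with a mean of at least 100 was different, since that median (-0.27) was near its own -0.28 in the step from E13.5 to E16.5 and, at 0.58, above its own 0.45 in that from P0 to P3. The direction of Mphosph8 relative to other genes therefore depended on which genes were taken. Pphln1 gave -1.33 to -1.31, -0.57 to -0.55 and 2.25 to 2.31, and Cbx5 -1.81 to -1.79, -1.02 to -0.99 and 1.61 to 1.67.

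Comparisons within 1 genotype tag gave large differences too. At P0 against E13.5, both tagged Morc1 (+/-), all 5 genes were lower, where 40.5% of all genes were lower and 45.7% higher, and, of genes with a mean of at least 100, 59.6% were lower and 31.5% higher. Cbx1 fell 22.4-fold there (log2 fold change -4.48, limma adjusted p 1.50e-15), and Mphosph8 2.54-fold (-1.34, adjusted p 4.62e-11). At P3 against E16.5, both tagged Morc1 (-/-), 4 of the 5 genes were higher, where 34.2% of all genes were higher and 35.2% lower. Of genes with a mean of at least 100, 46.8% were higher and 33.8% lower there. Cbx3 rose 5.07-fold (log2 fold change 2.33, adjusted p 7.96e-12), Cbx1 4.08-fold, Pphln1 3.33-fold and Cbx5 1.57-fold.

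Because the HP1 genes changed by different amounts, the make-up of HP1 transcripts changed with stage. Per kb of exon, Cbx1 gave 47.8% ± 1.04 of the summed HP1 reads at E13.5, then 23.3% ± 3.79, 17.2% ± 0.578 and 31.3% ± 1.004 (SD, n = 3). Cbx5 gave 24.2% ± 0.947, 51.4% ± 4.89, 34.8% ± 0.857 and 26.6% ± 1.23 at the same stages. Cbx3 gave 27.97% ± 1.94, 25.3% ± 1.11, 48.0% ± 0.473 and 42.1% ± 2.05. Each HP1 gene was therefore the leading one somewhere: Cbx1 at E13.5, Cbx5 at E16.5 and Cbx3 at P0 and P3. Within each stage the leading gene led in all 3 libraries. Summed per kb, HP1 normalized counts were 2987 ± 138, 504 ± 25.3, 372 ± 23.4 and 1533 ± 143. These sums depend on scaling and were taken only with the factors of the file. Their order at E16.5 and P0 turns with equal library totals. Those factors were 0.953 to 1.03 of the file's at E16.5 and 0.608 to 0.656 at P0. The shares do not depend on scaling, but they do depend on length: without division by exon length Cbx5, whose annotated exons are the longest at 9006 bases, led at E13.5 (36.9%), E16.5 (64.8%) and P0 (46.5%), and Cbx3 led at P3 (40.3%). The annotated exon length is that of all transcripts of a gene joined, which may not be the transcripts made in these cells.

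**Figure D3:**
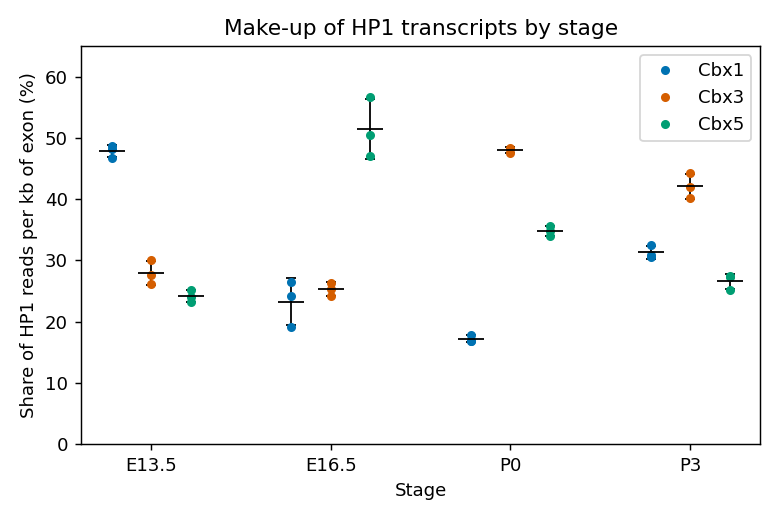
Share of each HP1 gene in the summed HP1 reads per kb of exon (vertical axis, percent) by stage (horizontal axis); points are libraries, bars the mean and SD of 3. Cbx1 leads at E13.5, Cbx5 at E16.5 and Cbx3 at P0 and P3.

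Ratios between members within a library, which do not depend on scaling, were compared over the 10 pairs. Since 95.2% of single genes differed among stages, most pairs of genes can be expected to differ too, and other pairs were not tested. All 10 differed among stages in an exact permutation test over the 12 libraries (15400 ways of forming 4 groups of 3, adjusted p between 0.000130 and 0.00357). The smallest p this test can give is 6.49e-05, and 5 pairs reached it. On the log2 scale, the ratio of Cbx1 to Cbx3 was 0.29 ± 0.131, -0.62 ± 0.183, -1.96 ± 0.0454 and -0.91 ± 0.113 (SD, n = 3). It was lowest at P0, in each library there, and the ranges of E16.5 and P3 overlapped. The ratio of Cbx3 to Cbx5 was -0.38 ± 0.155, -1.61 ± 0.198, -0.12 ± 0.0473 and 0.07 ± 0.135, with E16.5 apart from the other stages. The HUSH subunits also parted: the ratio of Mphosph8 to Pphln1 was 0.72 ± 0.0367, 1.45 ± 0.124 and 0.93 ± 0.0641 at E13.5, E16.5 and P0, and -0.91 ± 0.0654 at P3. Mphosph8 thus had more reads than Pphln1 in all 9 libraries up to birth and fewer in all 3 at P3. The narrowest range of stage means was that of Cbx5 to Mphosph8, at 1.27, and E16.5 and P0 overlapped in it.

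**Figure D4:**
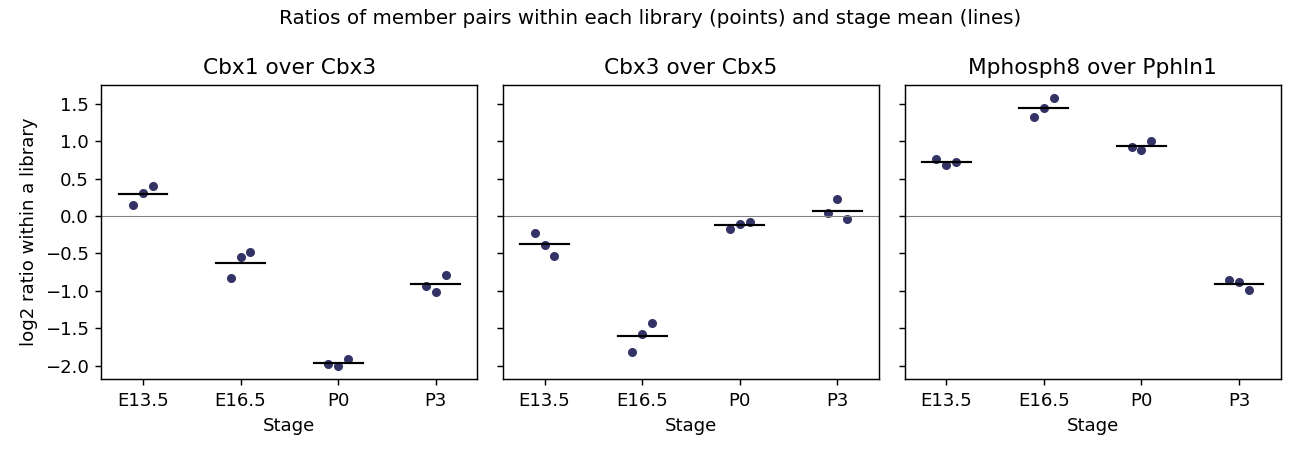
Log2 ratio of 2 members within a library (vertical axes) by stage (horizontal axes) for 3 of the 10 pairs; points are libraries and lines stage means. The ratio of Mphosph8 to Pphln1 is above 0 in every library of the first 3 stages and below 0 in every P3 library.

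Partners of HP1 and HUSH were described from lists of known genes. Of 5 HUSH partners, 0 were higher and 2 lower in the step to E16.5, 0 and 4 in that to P0, and 4 and 0 in that to P3, with median log2 fold changes of -0.10, -0.85 and 0.83. Over all genes 34.6% were lower, 33.4% lower and 40.1% higher in these steps. With equal library totals the counts were 3 and 2, 1 and 1, and 2 and 1, so the balance turned in the step to E16.5 and was even in that to P0. Fam208a, which encodes the TASOR scaffold of HUSH, had 1675 ± 86.1, 294 ± 67.3, 154 ± 21.2 and 775 ± 94.2 normalized counts (SD, n = 3). It fell by 2.53 on the log2 scale at E16.5 (limma adjusted p 2.52e-10) and rose by 2.32 at P3 against P0 (adjusted p 1.05e-09), whereas the reader subunit Mphosph8 of the same complex changed by -0.28 and 0.45. Setdb1, the H3K9 methyltransferase that works with HUSH, fell by 0.89 at E16.5 (adjusted p 1.23e-06) and rose from 2421 ± 189 at P0 to 5581 ± 728 at P3 (adjusted p 3.98e-08). Atf7ip, a stabilising partner of SETDB1, was 4860 ± 159 at E13.5 and 4868 ± 401 at E16.5, and fell by 1.02 at P0 against E16.5 (adjusted p 8.31e-09). Morc2a, the HUSH-linked relative of Morc1, fell by 0.85 at P0 against E16.5 (adjusted p 1.08e-05) and rose by 0.83 at P3 (adjusted p 8.19e-06), but with equal library totals these were -0.19 (adjusted p 0.187) and -0.011 (adjusted p 0.940).

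Genes of proteins that bind HP1 were described in the same way. All 9 of 9 were lower at E16.5 against E13.5, with a median log2 fold change of -1.62, and 8 of 9 were higher at P3 against P0, with a median of 1.85. With equal library totals 8 were lower and 1 higher, and 5 higher and 2 lower. The shares of all genes were 34.6% and 40.1%, as above, and those of genes with a mean of at least 100 were 50.2% and 59.7%. The median of -1.62 was the change of Adnp, a low gene with 39.7 ± 10.2 normalized counts at E13.5 and 13.1 ± 7.30 at E16.5. Incenp, a subunit of the chromosomal passenger complex that binds HP1, fell by 2.36 (limma adjusted p 2.15e-13) and rose by 2.48 (adjusted p 2.45e-13) on the log2 scale. Chaf1a, the large subunit of the histone chaperone CAF-1, fell by 2.16 (adjusted p 3.47e-12) and rose by 2.18 (adjusted p 5.16e-12). Trim28, the corepressor that brings HP1 and SETDB1 to KRAB zinc finger proteins, fell by 1.11 at E16.5 (adjusted p 6.37e-10), and at 8364 ± 711 normalized counts at P3 stood well under its 26512 ± 849 at E13.5. At P0 against E16.5, 1 of the 9 was higher and 5 lower, beside 27.6% and 33.4% of all genes, and 4 were higher and 2 lower with equal library totals.

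Other chromodomain and H3K9 genes were mixed. Among 6 other readers of H3K9 methylation, 5 were lower and 1 higher in the step to E16.5, 3 and 2 in that to P0, and 5 were higher and 0 lower in that to P3. With equal library totals 0 were lower and 5 higher in the step to P0, and 3 were higher and 1 lower in that to P3. The shares of all genes, for this list and those that follow, were 34.6% lower and 45.5% higher, 33.4% and 27.6%, and 36.4% and 40.1%. Cdyl, a chromodomain corepressor, fell by 2.35 on the log2 scale from E13.5 to E16.5 (limma adjusted p 5.31e-13) and rose by 1.76 at P3 against P0 (adjusted p 2.91e-11), whereas its paralog Cdyl2 rose by 0.83 at E16.5 (adjusted p 1.22e-07). Of the 6 H3K9 methyltransferases, 5 were lower and 1 higher at E16.5, and 5 higher and 1 lower at P3 against P0. The exception at both was Ehmt2, which makes H3K9me2 and rose by 1.32 at E16.5 (adjusted p 2.10e-11). Suv39h1, which makes the H3K9me3 that HP1 binds at pericentric repeats, rose by 2.84 at P3 against P0 (adjusted p 6.63e-14). Over the 30 genes of the lists of partners, other readers, methyltransferases and Polycomb chromodomain genes together, 21 were lower and 3 higher in the step to E16.5, 19 and 6 in that to P0, and 25 were higher and 2 lower in that to P3. With equal library totals 20 were lower and 9 higher in the step to E16.5. In that to P0 15 were higher and 6 lower, and in that to P3 17 were higher and 7 lower.

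Proliferation genes were listed for comparison. All 10 of 10, among them Mki67, Top2a and Pcna, were lower at E16.5 against E13.5 (median log2 fold change -2.78), 8 of 10 were lower and 0 higher at P0 against E16.5 (median -1.06, with 6 lower and 2 higher at equal library totals), and all 10 were higher at P3 against P0 (median 3.498). Cbx1 and Cbx3 fell by amounts on either side of that median at E16.5, and all 5 members rose by less than it at P3. Their part in the changes of the members was not tested.

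The genes whose profile was most like that of each member were ranked by Pearson's r on log2 values over the 12 libraries, among 12087 other genes with a mean of at least 100 normalized counts. The libraries form 4 stages, so r mainly compares 4 levels and is given as a description. For Cbx1 they were Ube2c, Serbp1 and Tiprl (r 0.998 each), and for Cbx3 Naa50, Vkorc1 and Strap (0.997, 0.996 and 0.996). For Cbx5 they were Cdc16, Hnrnpa1 and Ncbp3 (0.997, 0.997 and 0.996), for Mphosph8 Ndufaf5, Krt17 and Zfp345 (0.992, 0.991 and 0.990), and for Pphln1 Bid and Dnph1 (0.997 each). Other members were less alike: Cbx1 and Cbx5 had r 0.966, Cbx1 and Cbx3 0.923, and Mphosph8 and Pphln1 0.305, the lowest of the 10 pairs.

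One of these genes, Hnrnpa1, which encodes an RNA-binding protein that regulates splicing, is the genomic neighbour of Cbx5. The neighbours of all members were then examined, a step chosen after that rank was seen. Protein-coding genes on the opposite strand with a start within 5000 bp were found for 3 members, all arranged head to head. Hnrnpa1 starts 616 bp from Cbx5 and ranked 2 of 13134 genes in likeness to it (r 0.997). Its normalized counts were 84784 ± 2319, 20139 ± 655, 7402 ± 651 and 35800 ± 772 (SD, n = 3), the same order of stages as Cbx5. Zcrb1, which encodes a subunit of the minor spliceosome, starts only 16 bp from Pphln1, the 15 bases printed above lying between them. It ranked 12 of 13134 (r 0.993), with 4586 ± 365, 2463 ± 179, 1818 ± 40.8 and 6362 ± 841 normalized counts. Like Pphln1, it was highest at P3 and lowest at P0 with the factors of the file.

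The pair of Cbx3 ran otherwise. Hnrnpa2b1 starts 466 bp from Cbx3, and ranked 6321 of 13134 (r 0.419). Its normalized counts were 101189 ± 7005, 84277 ± 3299, 16935 ± 1973 and 60187 ± 3703 (SD, n = 3), so it was still high at E16.5, where Cbx3 was lowest. As a background, the 566 head-to-head protein-coding pairs within 1000 bp had a median r of 0.566, with quartiles of -0.04 and 0.851. Of them, 0.177% reached the r of the Cbx5 pair, that is, none but that pair itself. For the Pphln1 pair it was 0.353%, that is, only that pair and the Cbx5 pair, and for the Cbx3 pair 58.3%. Neighbours were examined because Hnrnpa1 already ranked high, so the place of the Cbx5 pair is a description and not a test. Annotated exons of these members and neighbours do not overlap. Hnrnpa1 belongs to a family with processed pseudogenes, so its level is less certain.

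**Figure D5:**
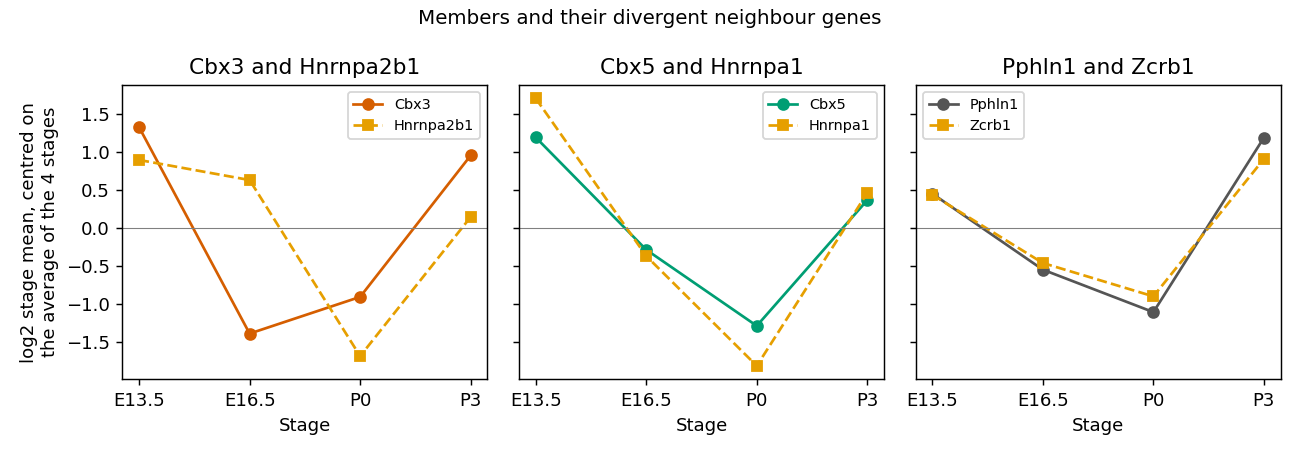
Log2 of the stage means (vertical axes), centred on the average of the 4 stages, for 3 members and the gene that starts next to each on the opposite strand, by stage (horizontal axes). The lines of Cbx5 and Hnrnpa1 and of Pphln1 and Zcrb1 run in the same order of stages, whereas Hnrnpa2b1 stays high at E16.5, where Cbx3 is lowest.

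Sequence shared with other genes was counted for each member, since reads from it may be assigned to either gene. Of the 50-base words of Cbx3 transcripts, 8.67% also occurred in transcripts of 16 other genes, 8 of them named as Cbx3 pseudogenes. The share was 0% for Cbx1 and 0.0221% for Cbx5, where the 2 genes that share those words held 37.6% to 142% of the Cbx5 count. The summed counts of the 16 genes that share words with Cbx3 came to 0.176%, 10.48%, 11.2% and 0.516% of the Cbx3 count. Als2cr12 alone held 68.2 of 80.1 normalized counts at E16.5 and 102.9 of 120.0 at P0. Adding all of them to Cbx3 would thus leave it far below its E13.5 level. For Mphosph8, 8.12% of words were shared, with Gm16973, whose exons overlap 384 bp of Mphosph8 on the opposite strand; it held 57.3 to 93.3 normalized counts, at most 1.53% of Mphosph8. For Pphln1, 2.23% were shared, spread over 100 genes, which include abundant ones: the counts of the 99 in the table summed to 1944% to 5747% of the Pphln1 count, and how many reads of the shared words were assigned to Pphln1 cannot be read from the table.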

How the data were processed

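The members and lists were chosen with earlier results of these data known. The table's name gives featureCounts as the counter and RLE (relative log expression) as the scaling. The submitters' processing notes name HISAT2 2.1.0, featureCounts 1.5.2, DESeq2 1.26.0 and the mm10 build. Strand setting, annotation release and treatment of reads matching several genes are not given in the sources used here. The signal deposited by the authors, here called normalized counts, is reads per gene over a size factor for each library. All values (100%) were multiples of the smallest value in their library, within 0.001, so whole reads were recovered. Median-of-ratios factors recomputed from these reads, at the same geometric mean, were 0.801 to 0.835 of the deposited factors at P0. At E13.5 they were 1.13 to 1.15 of the deposited factors. Column heads give the stage and the numbers 1, 3 and 4, not the replicate numbers of the titles, so columns were assigned by stage only. Symbols matched 99.4% of identifiers.

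Genes reaching 10 normalized counts in 3 or more libraries were tested on log2(normalized count + 1) with limma 3.58.1 (R 4.3.3, eBayes with a trend) over all 12 libraries, with Benjamini-Hochberg adjustment over all genes at 0.05. Fold changes are on that scale, which understates those of low genes. Ratios of members used an exact permutation test. Exon lengths and positions came from GENCODE M21. Recovered reads gave the alternatives with edgeR 4.0.16 and DESeq2 1.42.0. The methods were tested on simulated data. Named genes are the members, the listed partners, Morc1 and the 3 genes most correlated with each member, of which 1 is not reported here; Hnrnpa2b1 and Zcrb1, and Als2cr12 and Gm16973, were named after their values were seen. Predicted genes and clones were left out of the likeness ranking over 12087 genes, but not of that over 13134. Libraries of a stage differed by more than sampling noise (chi-square per gene 5.75 to 21.2).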

Additional observations from a re-analysis of the deposited data

How the results depend on the processing

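The planned replicate block on the numbers of the labels was not run, since columns are headed 1, 3 and 4, unlike the titles. A replicate block on the column number, added after the data were seen, changed no member call (Cbx1 at E16.5 against E13.5 -3.62, Mphosph8 -0.28, adjusted p 0.00432) and called 17911 genes there in place of 17932. Same-numbered libraries of different stages deviated together no more than others (r -0.036 to 0.042 over 18 pairs, -0.072 to 0.053 over the other 36), and 2 of 12 libraries correlated best with their own number. Of 690 alternative values of the 30 member changes, 682 kept their direction and side of the threshold. The other 8 came from scaling. With equal library totals, Mphosph8 turned at E16.5 against E13.5 (0.23) and P3 against P0 (-0.39), as did Pphln1 at P0 against E16.5 (0.11), while Cbx1 at P0 against E16.5 (-0.20) and Cbx3 at P3 against E13.5 (-0.046) no longer passed. For Mphosph8, median-of-ratios factors gave -0.053 in the former comparison and 0.0100 in the latter, where TMM factors gave 0.16. With equal totals Fam208b (-0.14) and Morc2a (-0.011) turned at P3 against P0. All 140 alternatives of the 10 ratios still passed (adjusted p up to 0.00448). A mean of at least 100, which tests fewer genes, called 11459 genes at E16.5 against E13.5, 11249 at P3 against P0, 11968 at P0 against E13.5 and 13040 among stages, in place of 17932, 17122, 19280 and 21300. Of the 30 listed genes, equal totals put 9 higher at E16.5 against E13.5, 15 higher and 6 lower at P0 against E16.5, and 7 lower at P3 against P0, where median-of-ratios factors put 5. Without division by exon length the share of Cbx1 was 34.7%, 13.97%, 10.9% and 21.4% at the 4 stages, that of Cbx5 36.9%, 64.8%, 46.5% and 38.3%, and that of Cbx3 21.3% at E16.5 and 42.6% at P0. Calls at 0.05 were not limited by depth for the members, since each had at least 439 reads in every library.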

Other observations

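The Polycomb chromodomain genes, which share a chromodomain with HP1 but bind another histone mark, H3K27me3, were also counted. Of 5, 1 was higher and 1 lower at E16.5 against E13.5, beside 45.5% and 34.6% of all genes, and with equal library totals 3 were higher and 1 lower. The median log2 fold change was -0.20, beside 0.31 over all genes and -0.27 over genes with a mean of at least 100. Cbx8 rose from 364 ± 10.2 at E13.5 to 1415 ± 41.4 normalized counts at E16.5 (SD, n = 3; log2 fold change 1.96, limma adjusted p 3.31e-12), while Cbx2 had 2387 ± 76.3 and 2155 ± 223. At P3 against P0, 4 of the 5 were higher and 1 lower, with a median of 1.38, beside 40.1% and 36.4% of all genes, and 3 were higher and 2 lower with equal library totals. Cbx2 rose by 1.71 (adjusted p 1.66e-10). Cbx8 was the one lower. The difference between this list and the HP1 genes was not tested.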
